A study of Mus musculus with 6 samples.

Results

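NRF2, encoded by Nfe2l2, is the transcription factor that switches on the antioxidant genes of the cell. This account follows 10 genes in LPS-stimulated mouse macrophages with and without Akirin2: 9 widely used NRF2 targets and Slc7a11, the cystine transporter, which NRF2 and ATF4 both control. A gene was read from probe sets that the platform annotation gives 1 symbol, taking the one with the highest mean over the 6 arrays. Under that rule 9 of the 10 genes were measured, among 18194 genes in all. All 9 reached the median of an array on at least 1 array, as did 13587 of the 18194 genes, and tests ran over those 13587. Prdx1, which encodes a peroxiredoxin that removes hydrogen peroxide, has no value here because each of its 5 probe sets also carries the symbol Gm21399.

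The cells were peritoneal macrophages drawn into the abdominal cavity by thioglycollate, an irritant. Akirin2 KO cells came from LysM-Cre+;Akirin2fl/fl mice, in which Cre made from the lysozyme locus removes Akirin2 in myeloid cells, and the others came from wild-type mice. Both genotypes were of strain C57BL/6 x 129Sv, and cells of each were left unstimulated (0 h) or received 100 ng/ml of LPS, lipopolysaccharide from bacterial membranes, for 2 h or 4 h. Total RNA of each of these 6 conditions was read on 1 array, without replicates. The labels give neither the age nor the number of mice, nor whether the 3 samples of a genotype share mice. Akirin2 encodes a nuclear protein that helps inflammatory genes to be transcribed, and the design asks how its loss changes the response to LPS.

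At rest, KEAP1 holds NRF2 in a CUL3 and RBX1 ubiquitin ligase that marks it for destruction. Oxidants and electrophiles modify KEAP1, NRF2 then accumulates, pairs with a small MAF protein and binds antioxidant response elements. BACH1 represses many of the same elements until heme displaces it. In macrophages these genes supply glutathione and thioredoxin, break down heme and limit oxidative damage during activation.

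Promoter windows from RefSeq (build GRCm38.p6), running from 250 bases before to 50 bases after an annotated start, were held for 7 of the 10 genes. Of these, 4 windows are printed, those of Slc7a11, Gclm, Txnrd1 and Srxn1. These genes carry the main contrasts among the measured members: the strongest LPS response, the largest difference at rest, and the pair with the closest profiles. Capitals mark 3 motifs searched on both strands: TGACNNNGC, the core of the antioxidant response element; TGANTCA, bound by AP-1; and TGATGNAA, a composite bound by C/EBP and ATF factors. Each sequence reads along its gene, 5′ to 3′.
Slc7a11, chr3:50443564-50443863, minus strand: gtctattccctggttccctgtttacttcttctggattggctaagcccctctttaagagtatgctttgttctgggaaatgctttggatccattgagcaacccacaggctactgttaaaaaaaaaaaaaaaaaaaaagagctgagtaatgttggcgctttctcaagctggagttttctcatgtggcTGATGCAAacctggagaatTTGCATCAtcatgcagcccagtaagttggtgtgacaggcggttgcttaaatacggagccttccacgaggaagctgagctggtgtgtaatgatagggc
Gclm, chr3:122245307-122245606, plus strand: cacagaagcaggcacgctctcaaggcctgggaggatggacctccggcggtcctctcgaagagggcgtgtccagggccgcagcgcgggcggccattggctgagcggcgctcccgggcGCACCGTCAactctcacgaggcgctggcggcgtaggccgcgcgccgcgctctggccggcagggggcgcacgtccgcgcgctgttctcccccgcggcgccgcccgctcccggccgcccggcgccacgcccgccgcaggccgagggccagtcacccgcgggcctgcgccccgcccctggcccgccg
Txnrd1, chr10:82858956-82859255, plus strand: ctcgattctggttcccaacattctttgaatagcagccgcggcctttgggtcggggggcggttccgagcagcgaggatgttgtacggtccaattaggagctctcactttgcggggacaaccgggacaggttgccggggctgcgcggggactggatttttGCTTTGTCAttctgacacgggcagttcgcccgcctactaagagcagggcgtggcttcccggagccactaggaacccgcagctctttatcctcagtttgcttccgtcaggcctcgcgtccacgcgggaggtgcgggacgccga
Srxn1, chr2:152105274-152105573, plus strand: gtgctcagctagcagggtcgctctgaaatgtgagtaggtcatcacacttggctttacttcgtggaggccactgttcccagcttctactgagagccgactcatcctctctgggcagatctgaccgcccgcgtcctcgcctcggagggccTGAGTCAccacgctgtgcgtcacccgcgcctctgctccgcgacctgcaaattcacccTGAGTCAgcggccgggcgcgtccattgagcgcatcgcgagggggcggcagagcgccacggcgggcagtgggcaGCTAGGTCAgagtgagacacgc

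The Slc7a11 window holds the composite motif on both strands, at 66 and 47 bases before the start, and no match to the other motifs. Over 32851 windows of the same length, 3.97% hold that composite. The antioxidant response core stands 134 bases before the start in Gclm and 92 bases before it in this Txnrd1 window, 1 of 3 for the gene. It lies at bases 279 to 287 of the Srxn1 window, past the start, and AP-1 motifs stand 102 and 45 bases before it. The Prdx1 window also holds the core, overlapping 1 of its 2 AP-1 motifs, so the core is in 4 of 9 windows of these genes and in 12.4% of all windows. AP-1 motifs are in 2 of the 9 windows and in 7.81% of all. No match to any of the 3 motifs lies in the Nqo1 and Sqstm1 windows. A match describes these letters only, and the arrays do not measure binding or which start was used.

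Values are log2 expression per probe set after RMA, and levels of different probe sets are not set against each other. Array medians over all probe sets lay between 3.18 and 3.23, and upper quartiles between 4.29 and 4.4. LPS effects and genotype effects come from a limma fit with LPS time and genotype as terms, in which an effect passed at an adjusted p under 0.05 (Benjamini-Hochberg over all 13587 genes). The LPS effect of a time rests on 2 arrays against 2, and the genotype effect on 3 against 3, with the genotypes or times in place of replicates. Genotype p-values therefore say how steady a difference stayed across the 3 times. LPS p-values say how alike the response was in both genotypes. Neither kind carries anything on the spread between animals. Akirin2 itself read 5.18, 5.54 and 4.91 in KO at 0, 2 and 4 h, against 7.43, 7.47 and 7.33 in wild-type (log2 difference -2.2, SE 0.14, adjusted p = 0.000328). Of 8 macrophage markers, Csf1r, Lyz2, Cd68, Cd14 and Adgre1 read at least 8.51 on every array. Fcgr1 lay between 4.66 and 6.48, Mertk between 3.88 and 5.86, and Itgam between 3.06 and 3.47, near the array medians.

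LPS raised most of these genes in both genotypes. At 4 h 8 of the 9 had risen over 0 h and none had fallen, against 7.76% of all genes higher and 7.61% lower. At 2 h 4 of the 9 had risen, namely Slc7a11, Sqstm1, Txnrd1 and Srxn1, and none had fallen, against 3.96% of all genes higher and 2.89% lower. The median effect of the 9 was 0.60 at 2 h and 1.34 at 4 h on the log2 scale, and over all genes it was -0.042 and -0.026. All 4 LPS arrays lay above both 0 h arrays for Slc7a11, Gsr, Txnrd1, Srxn1, Hmox1 and Sqstm1, 6 of the 9, as for 13.5% of all genes. Of 8 neutrophil markers 3 were above the floor, and 1 of these, S100a8, rose with LPS (0.67 at 2 h, adjusted p = 0.0438, and 1.26 at 4 h, adjusted p = 0.00116). S100a9 read 6.7, 6.44 and 6.34 in KO at 0, 2 and 4 h, against 6.65, 6.56 and 6.09 in wild-type (-0.46 at 4 h, adjusted p = 0.0941), and Mpo, Elane, Cxcr2 and Ltf were below the floor. The summed linear level of the neutrophil list was 354.6, 425.1 and 568.4 in KO at 0, 2 and 4 h. In wild-type it was 335.1, 482 and 641.5. S100a8, the brightest gene of the list on every array, weighs most in that sum. It read 7.74, 8.25 and 8.8 in KO, against 7.61, 8.44 and 9.06 in wild-type. The part of these markers in the responses was not tested. Of 8 macrophage markers, Cd14 rose (1.74 at 2 h and 1.53 at 4 h, adjusted p = 0.000592 and 0.000547), and Mertk and Fcgr1 fell (by 1.64 and 0.88 at 4 h, adjusted p = 0.000689 and 0.00461), and the part of these was not tested either. Of all genes that passed at 2 h, 57.8% were higher, 68.1% when each array was centred on its median gene, and 37.4% without the KO 0 h array.

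**Figure D1:**
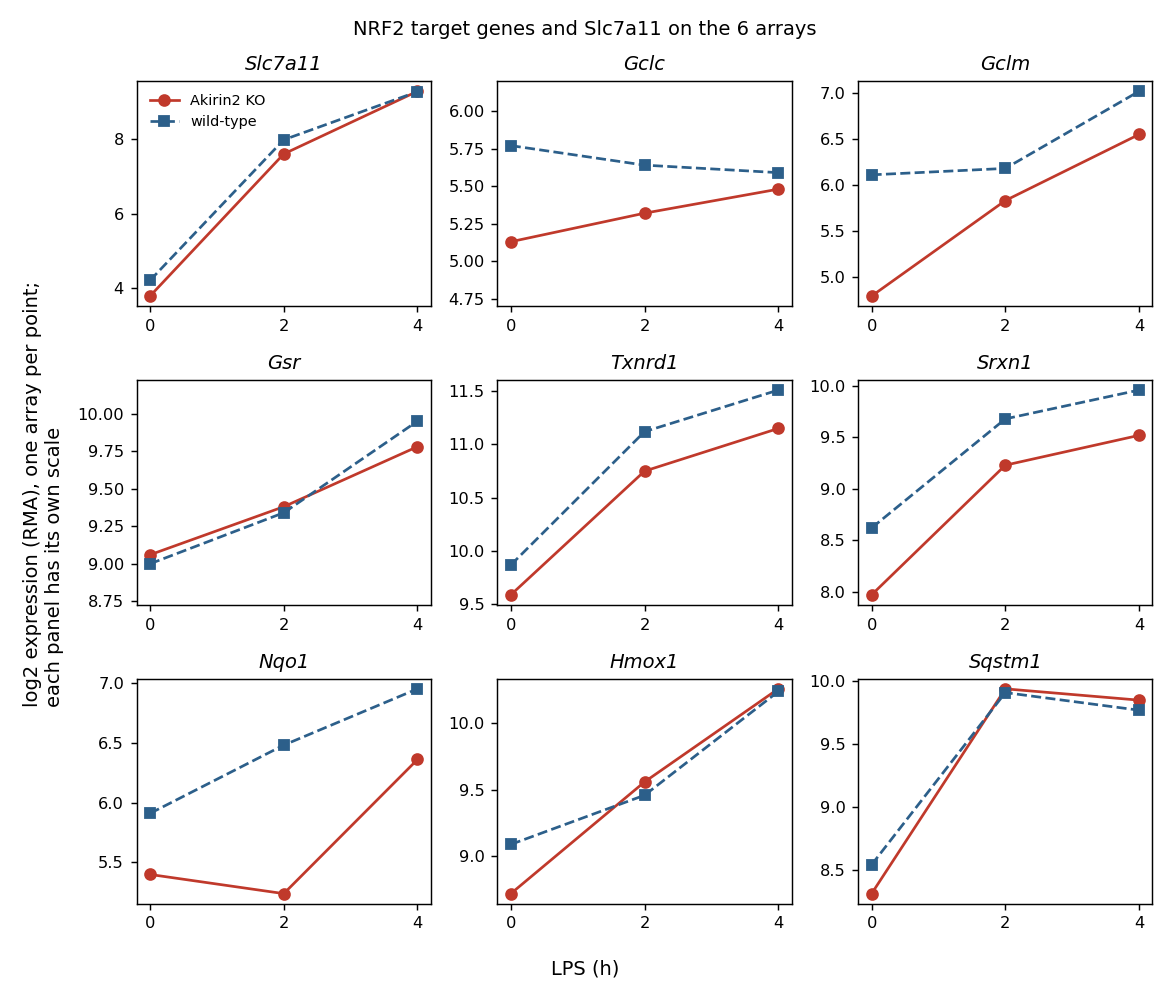
Log2 expression after RMA of the 9 measured genes (vertical axis, a scale for each panel) at 0, 2 and 4 h of LPS (horizontal axis) in Akirin2 KO (red circles) and wild-type (blue squares); each point is 1 array. Slc7a11 climbs steeply in both genotypes, Gclc stays within 0.65 of itself over all 6 arrays, and KO points lie below wild-type points at every time for Gclc, Gclm, Txnrd1, Srxn1 and Nqo1.

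Slc7a11 RNA had the largest LPS effect of the 9 genes. Slc7a11, the light chain of the transporter that trades glutamate for cystine, read 3.79, 7.6 and 9.28 in KO at 0, 2 and 4 h. In wild-type it read 4.21, 7.98 and 9.27. At 0 h it lay between the median and the upper quartile of its array in both genotypes, and by 2 h it lay far above the upper quartile. The LPS effect was 3.79 at 2 h (SE 0.17, 13.9-fold, adjusted p = 8.53e-06) and 5.28 at 4 h (SE 0.17, 38.8-fold, adjusted p = 1.21e-06). The 4 h effect ranked 7 from the top of all genes. It also rose between 2 h and 4 h by 1.48 (SE 0.17, adjusted p = 0.00496). It was the 1 gene of the 9 to pass there, where 1.56% of all genes were higher and 1.11% lower. Without either 0 h array Gclm, Nqo1 and Hmox1 passed there as well, and Nqo1 did without the wild-type 2 h array. LPS time held 99.5% of its variance over the 6 arrays and genotype 0.35%.

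A second Slc7a11 probe set moved less. It gave 3.46, 4.99 and 5.95 in KO at 0, 2 and 4 h, against 3.37, 5.21 and 6.75 in wild-type. Its mean LPS effect was 1.69 at 2 h and 2.94 at 4 h. Both probe sets rose with LPS in both genotypes, but they differ on the genotypes at 4 h: KO minus wild-type was -0.80 on this one and 0.01 on the brighter one. The size of the Slc7a11 response, and any genotype difference at 4 h, therefore depends on which probe set is read.

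RNA of the glutamate-cysteine ligase subunits, which serve glutathione synthesis, changed unevenly with LPS. Gclm, the modifier subunit of glutamate-cysteine ligase, read 4.79, 5.83 and 6.55 in KO at 0, 2 and 4 h, against 6.11, 6.18 and 7.02 in wild-type. The KO array at 0 h was the lowest of the 6, and the KO and wild-type ranges overlapped. Gclm rose by 4 h (1.33, SE 0.23, adjusted p = 0.00564) and its 2 h effect of 0.56 did not pass (adjusted p = 0.222). These values lean on the 0 h arrays: the 2 h effect was 1.01 without the wild-type 0 h array (adjusted p = 0.00555) and 0.11 without the KO 0 h array (adjusted p = 0.785), and the 4 h effect was 0.88 without that KO array (adjusted p = 0.00566). Gclc, the catalytic subunit, read 5.13, 5.32 and 5.48 in KO, against 5.77, 5.64 and 5.59 in wild-type. It was the member that LPS did not move past the threshold at either time (0.03 at 2 h, adjusted p = 0.95, and 0.09 at 4 h, adjusted p = 0.796). Its 3 KO arrays all lay below its 3 wild-type arrays, as for 6.2% of all genes and for no other gene of the 9.

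Gsr, the reductase that regenerates glutathione with NADPH, read 9.06, 9.38 and 9.78 in KO, against 9, 9.34 and 9.95 in wild-type. Its LPS arrays all exceeded its 0 h arrays, by less than 1 unit. It rose by 4 h (0.84, SE 0.15, adjusted p = 0.00669), and the call was lost when its dim second probe set was averaged in (0.41, adjusted p = 0.0571) or without the wild-type 4 h array (0.73, adjusted p = 0.0513).

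Txnrd1 and Srxn1 had risen by 2 h in both genotypes. Txnrd1, the cytosolic thioredoxin reductase, read 9.59, 10.75 and 11.15 in KO at 0, 2 and 4 h, against 9.87, 11.12 and 11.51 in wild-type. Srxn1, which repairs over-oxidised peroxiredoxins, read 7.97, 9.23 and 9.52 in KO, against 8.62, 9.68 and 9.96 in wild-type. For both genes every LPS array lay above every 0 h array, and the KO array lay below the wild-type array at each time. Txnrd1 rose by 1.21 at 2 h (SE 0.15, adjusted p = 0.00189) and 1.60 at 4 h (SE 0.15, adjusted p = 0.000197). Srxn1 rose by 1.16 at 2 h (SE 0.15, adjusted p = 0.00268) and 1.44 at 4 h (SE 0.15, adjusted p = 0.000418). Centred on their own means, the profiles of these 2 genes over the 6 arrays differed by a root mean square of 0.13, the smallest of any pair among the 9. Genes outside the 9 lay closer to each, such as Fas to Txnrd1 (0.09) and Susd6 to Srxn1 (0.08).

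Nqo1, a quinone reductase, read 5.40, 5.24 and 6.36 in KO at 0, 2 and 4 h, against 5.91, 6.48 and 6.95 in wild-type. Its lowest array was KO at 2 h, and the wild-type value at 2 h was already above the KO value at 4 h. It rose by 4 h (1, SE 0.2, adjusted p = 0.0108), while the 2 h effect of 0.21 did not pass (adjusted p = 0.636). LPS time held 51.1% of its variance and genotype 41.6%. For Gclc genotype held 70.9%, for Gclm 26.7% and for Srxn1 14.5%.

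Hmox1, the heme oxygenase that opens the heme ring, read 8.72, 9.56 and 10.26 in KO, against 9.09, 9.46 and 10.24 in wild-type. At 4 h the genotypes were 0.03 apart. It rose by 4 h (1.34, SE 0.17, adjusted p = 0.00109), and the 2 h effect of 0.60 missed the threshold (adjusted p = 0.0753). It passed at 2 h when each array was centred on its median gene (0.67, adjusted p = 0.0493), without the wild-type 0 h array (0.82, adjusted p = 0.019) and without either 4 h array (0.60, adjusted p = 0.0485).

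Sqstm1, an autophagy receptor that also binds KEAP1, read 8.31, 9.94 and 9.85 in KO, against 8.54, 9.91 and 9.77 in wild-type. Both genotypes were near their top value by 2 h. It rose by 1.5 at 2 h (SE 0.16, adjusted p = 0.000854) and 1.38 at 4 h (SE 0.16, adjusted p = 0.000622). It was the 1 gene of the 9 whose fitted 4 h level lay below its 2 h level (-0.12).

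**Figure D2:**
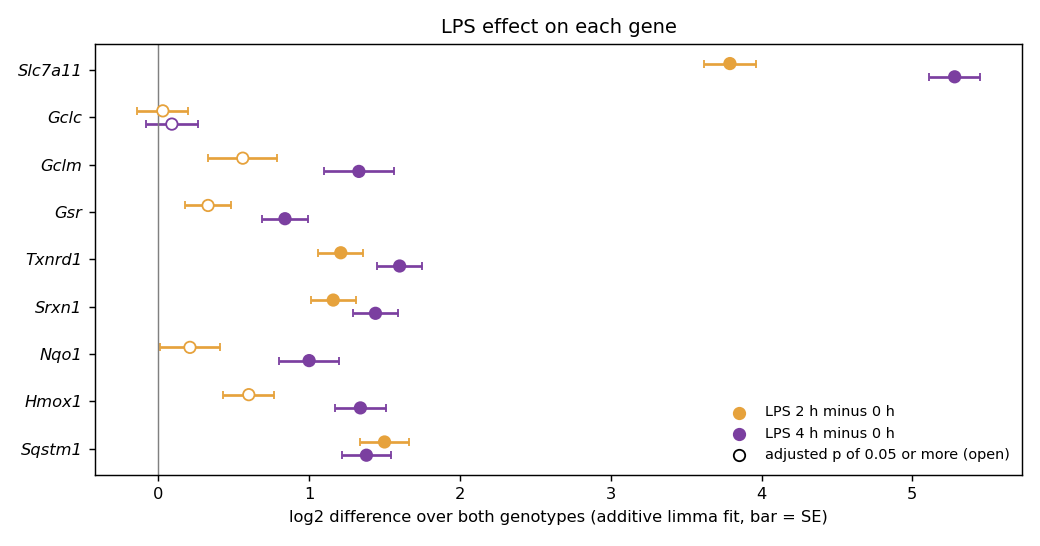
LPS effect of each gene over both genotypes in log2 units (horizontal axis) at 2 h (orange) and 4 h (purple) against 0 h, from the additive limma fit; bars are standard errors, and open circles mark an adjusted p of 0.05 or more. Slc7a11 stands at 3.79 and 5.28, the other 7 genes that rose by 4 h lie between 0.84 and 1.60 at 4 h, and Gclc lies at 0.09.

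In single arrays, with no test, 5 of the 9 genes were at least 2-fold higher at 2 h than at 0 h in KO (2.44% of all genes) and 4 of the 9 in wild-type (2.26%). The extra gene in KO was Gclm. At 4 h the count was 6 in KO (4.07%) and 6 in wild-type (3.72%), with Gclm on the KO side and Nqo1 on the wild-type side. Both lay near the cut-off of 1 log2 unit in the other genotype. Nqo1 rose by 0.96 in KO and 1.05 in wild-type, and Gclm by 1.76 in KO and 0.91 in wild-type. On its second probe set Gclm passed in both genotypes (1.83 in KO and 1.58 in wild-type). Between 2 h and 4 h, Slc7a11 and Nqo1 were 2-fold higher in KO (1.01% of all genes), and Slc7a11 in wild-type (1.35%). Over all genes 2-fold apart, the share that was higher depends on the scaling: at 4 h it was 62.2% in KO and 43.9% in wild-type as deposited, and 50.2% and 60.5% with centred arrays. At 2 h in wild-type it was 50.8% as deposited and 68% with centred arrays, and between 2 h and 4 h in KO it was 66.5% and 53.8%.

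No gene of the 9 differed between Akirin2 KO and wild-type past the threshold, against 0.891% of all genes higher and 1.06% lower. At an unadjusted p under 0.05, 5 of the 9 and 2091 of the 13587 genes differed. All 9 effects were below 0, with a median of -0.34, beside a median of -0.011 over all genes and 47.7% of all genes above 0. KO was below wild-type at all 3 times for Gclc, Gclm, Txnrd1, Srxn1 and Nqo1, 5 of the 9, as for 20.4% of all genes. The lowest effects were those of Nqo1 (-0.78, 95% interval -1.15 to -0.41, adjusted p = 0.0579), Gclm (-0.71, interval -1.14 to -0.28, adjusted p = 0.116) and Srxn1 (-0.52, interval -0.80 to -0.24, adjusted p = 0.0819).

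Gclc differed by -0.36 (interval -0.68 to -0.04, adjusted p = 0.269) and Txnrd1 by -0.34 (interval -0.61 to -0.07, adjusted p = 0.222). Slc7a11 differed by -0.26 with an interval of -0.57 to 0.05 (adjusted p = 0.403). The intervals of Hmox1 (-0.40 to 0.23), Sqstm1 (-0.33 to 0.25) and Gsr (-0.30 to 0.26) lie on both sides of 0. When the variance prior was allowed to follow expression level and to be robust, Nqo1 (adjusted p = 0.00199), Gclm (0.0116), Srxn1 (0.000182) and Txnrd1 (0.000909) passed as lower. Nqo1 also passed without either 0 h array (-0.92, adjusted p = 0.0091) and without either 4 h array (-0.87, adjusted p = 0.0383), and was farther from the threshold without either 2 h array (-0.55, adjusted p = 0.296). Gclm came to -0.41 without either 0 h array (adjusted p = 0.145).

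**Figure D3:**
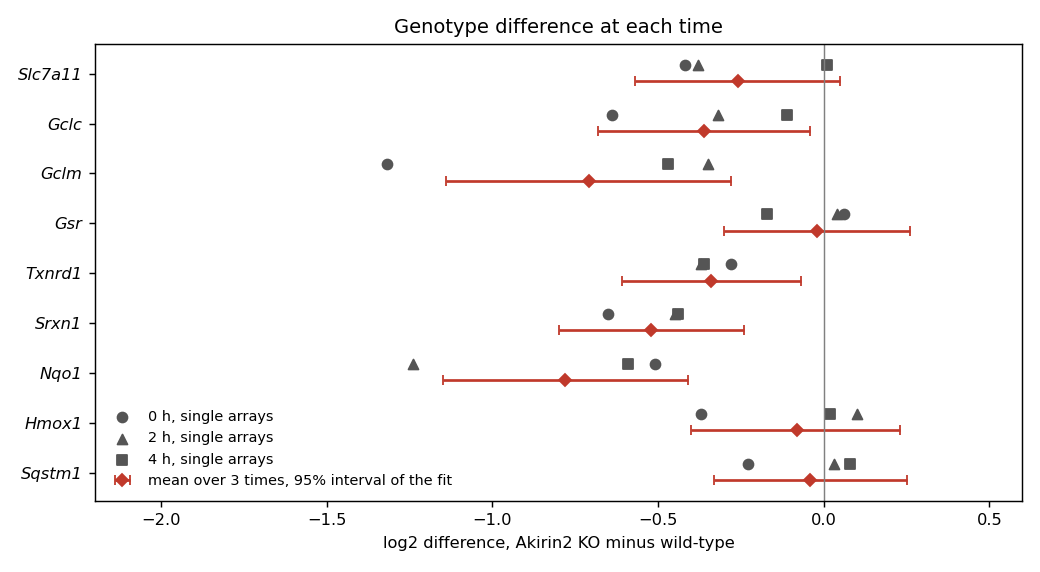
Log2 difference, Akirin2 KO minus wild-type (horizontal axis), for each gene at 0 h (circles), 2 h (triangles) and 4 h (squares) from single arrays, with the mean over the 3 times and its 95% interval from the additive limma fit in red. Gclm at 0 h (-1.31) and Nqo1 at 2 h (-1.24) lie farthest left, and the red means of all 9 genes lie left of 0.

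By time, the difference was 2-fold for 1 gene at rest, Gclm (-1.31, with 1.15% of all genes 2-fold lower), and for 1 gene at 2 h, Nqo1 (-1.24, with 0.464% of all genes). At 4 h it was 2-fold for 0 genes (0.618% of all genes). The median over the 9 was -0.42, -0.35 and -0.17 at 0, 2 and 4 h, beside -0.074, 0.004 and 0.03 over all genes. With averaged probe sets the median of the 9 was -0.36, -0.31 and -0.39, so the smaller value at 4 h depends on the probe sets read. Centring each array moved the median of all genes at 0 h to 0.087. Centring shifts all genes of an array alike, so it cannot change the median of the 9 minus that of all genes, -0.35. Of all genes 2-fold apart at 0 h, 40.5% were higher in KO as deposited, 69.8% with centred arrays and 55.8% after a further quantile normalization. At 4 h that share was 57.4% as deposited and 37.5% with centred arrays.

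The other probe sets bear on these differences. A second Gclm probe set read 4.80, 5.47 and 6.63 in KO, against 5.51, 6.11 and 7.09 in wild-type, so its difference at 0 h was -0.71 in place of -1.31. Of 4 Srxn1 probe sets, the 3 bright ones gave mean differences of -0.52, -0.49 and -0.49, and the fourth stayed between 2.73 and 3.54, near the array medians. A dim second Gclc probe set, between 3.06 and 3.77, gave -0.43, in the same direction as the one used. The dimmer Sqstm1 probe set rose alike, by 1.56 at 2 h and 1.20 at 4 h. Nqo1 and Hmox1 had 1 probe set each, and the other Gsr one lay between 3.12 and 3.53. Of 2 dim Txnrd1 probe sets, one read 3.58, 3.46 and 3.63 in KO, against 3.4, 3.94 and 4.16 in wild-type, and the other lay between 2.5 and 3.37. Averaging the Txnrd1 probe sets cut its LPS effects to 0.67 at 2 h (adjusted p = 0.0304) and 0.91 at 4 h (adjusted p = 0.00384).

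**Figure D4:**
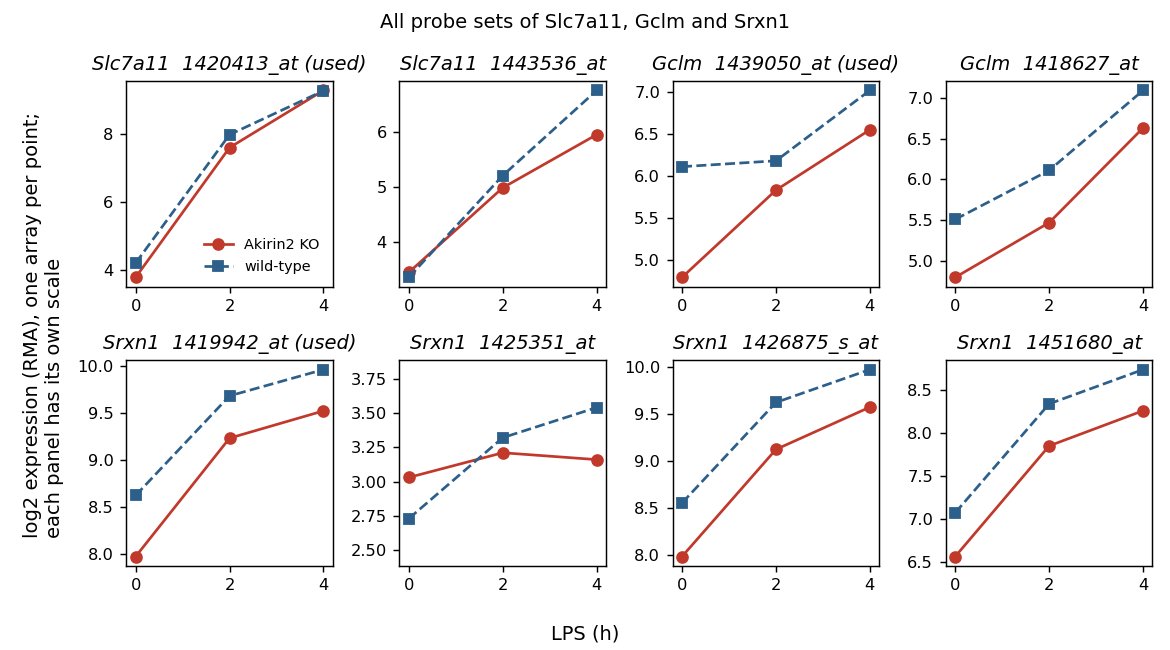
Log2 expression after RMA (vertical axis, a scale for each panel) of every probe set of Slc7a11, Gclm and Srxn1 at 0, 2 and 4 h of LPS (horizontal axis) in Akirin2 KO (red circles) and wild-type (blue squares), 1 array per point. The 2 Slc7a11 probe sets part at 4 h (9.28 in KO and 9.27 in wild-type on one, 5.95 in KO and 6.75 in wild-type on the other), and 3 of the 4 Srxn1 probe sets repeat the same gap.

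Some other measures moved with genotype, and the part of each one below in these differences was not tested. The gap between 3′ and 5′ control probe sets of Actb, a sign of RNA length, was 4.64, 4.50 and 4.36 in KO at 0, 2 and 4 h, against 4.22, 4.16 and 4.09 in wild-type. The same gap for Gapdh was 4.34, 4.52 and 4.44 in KO, against 4.33, 4.33 and 4.42 in wild-type. Hybridisation spikes averaged 10.66, 9.96 and 9.87 on the KO arrays, against 10, 10 and 10.24 on the wild-type arrays, so the KO 0 h array stood highest. That array was also the lowest of the 6 for 7 of the 9 genes. The same share over all genes was not taken, and genes that rise with LPS tend to be lowest at 0 h. Without the KO 0 h array, the median LPS effect of the 9 was 0.41 at 2 h and 1.21 at 4 h. Over all genes it was -0.071 and -0.053. The median genotype effect of the 9 was then -0.22, beside 0.019 over all genes. Of 8 mesothelial and fibroblast markers, 7 were above the floor and 1, Col1a2, passed as lower in KO (-0.83, SE 0.15, adjusted p = 0.0372). Their summed linear level ranged from 433.5 to 507.7 in KO, against 696.2 to 765.9 in wild-type, while the mesothelial markers Msln, Upk3b and Krt19 stayed at or below 3.68. Of 8 macrophage markers 1 passed, Fcgr1, at 5.50, 4.94 and 4.66 in KO, against 6.48, 5.73 and 5.55 in wild-type (-0.89, SE 0.12, adjusted p = 0.0115). Of all genes, 1.06% passed as lower in KO. In a bulk sample, fewer cells of a type and less RNA per cell cannot be told apart.

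Whether the LPS response itself differed between genotypes was asked with an interaction term, 2 h and 4 h together against 0 h. It passed for 0 of the 9 genes, against 0.00736% of all genes higher and 0.0221% lower, with 1 of the 9 and 1739 of all genes at an unadjusted p under 0.05. That gene was Gclm, whose response was larger in KO by 0.90 (interval 0.36 to 1.44, adjusted p = 0.172). By array, Gclm went up by 1.04 at 2 h and 1.76 at 4 h in KO, against 0.08 and 0.91 in wild-type. On its second probe set the response difference was 0.07 at 2 h and 0.25 at 4 h, against 0.96 and 0.84 on the one used.

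Slc7a11 responses were 3.81 at 2 h and 5.49 at 4 h in KO, against 3.77 and 5.06 in wild-type, and the interaction of 0.23 had an interval of -0.34 to 0.81 (adjusted p = 0.767). Averaging its probe sets turned that value to -0.18. The Hmox1 interaction was 0.43 (interval -0.10 to 0.97), that of Nqo1 -0.41 (interval -1.05 to 0.23) and that of Srxn1 0.21 (interval -0.33 to 0.75). These values stand on a scale where the median of all genes was 0.103 as deposited and -0.111 with centred arrays. The median of the 9 was 0.13 above that of all genes, a gap that centring cannot change because it shifts all genes of an array alike. With averaged probe sets the median of the 9 lay on the other side of that of all genes (-0.06).

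Some of the genes that control NRF2 changed with LPS. Of 10 measured, 3 had risen and 2 had fallen at 2 h (beside 3.96% and 2.89% of all genes), and 4 had risen and 2 had fallen at 4 h (beside 7.76% and 7.61%), with list medians of 0.17 and 0.01. Keap1, Cul3, Rbx1 and Mafk passed at neither time. Nfe2l2 read 8.03, 9.19 and 9.12 in KO at 0, 2 and 4 h, against 8.27, 9.13 and 9.21 in wild-type, and rose by 1.01 at 2 h (SE 0.15, adjusted p = 0.00595) and 1.01 at 4 h (SE 0.15, adjusted p = 0.0028). Maff, a small MAF partner, read 3.11, 5.15 and 4.62 in KO, against 3.27, 5.83 and 5.22 in wild-type, and rose by 2.30 at 2 h (adjusted p = 0.00015). Nfe2l1, the NRF2 relative that controls proteasome genes, rose by 0.64 at 2 h and 1.13 at 4 h (adjusted p = 0.0377 and 0.0012).

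The repressors went the other way. Bach1 read 10.71, 10.21 and 9.74 in KO, against 10.76, 9.95 and 9.71 in wild-type, and fell by 1.01 at 4 h (SE 0.15, adjusted p = 0.00285). Bach2 read 5.11, 4.33 and 3.22 in KO, against 5.17, 4.22 and 3 in wild-type, and fell by 2.03 at 4 h (SE 0.15, adjusted p = 7.53e-05). Keap1 read 3.82, 3.32 and 3.98 in KO, against 4.68, 3.66 and 4.03 in wild-type, and its 2 h effect of -0.76 missed the threshold (adjusted p = 0.0634). None of the 10 differed between KO and wild-type past the threshold, and Nfe2l2 differed by -0.09 (SE 0.13, adjusted p = 0.79). These are RNA levels, and NRF2 is controlled largely through its protein.

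**Figure D5:**
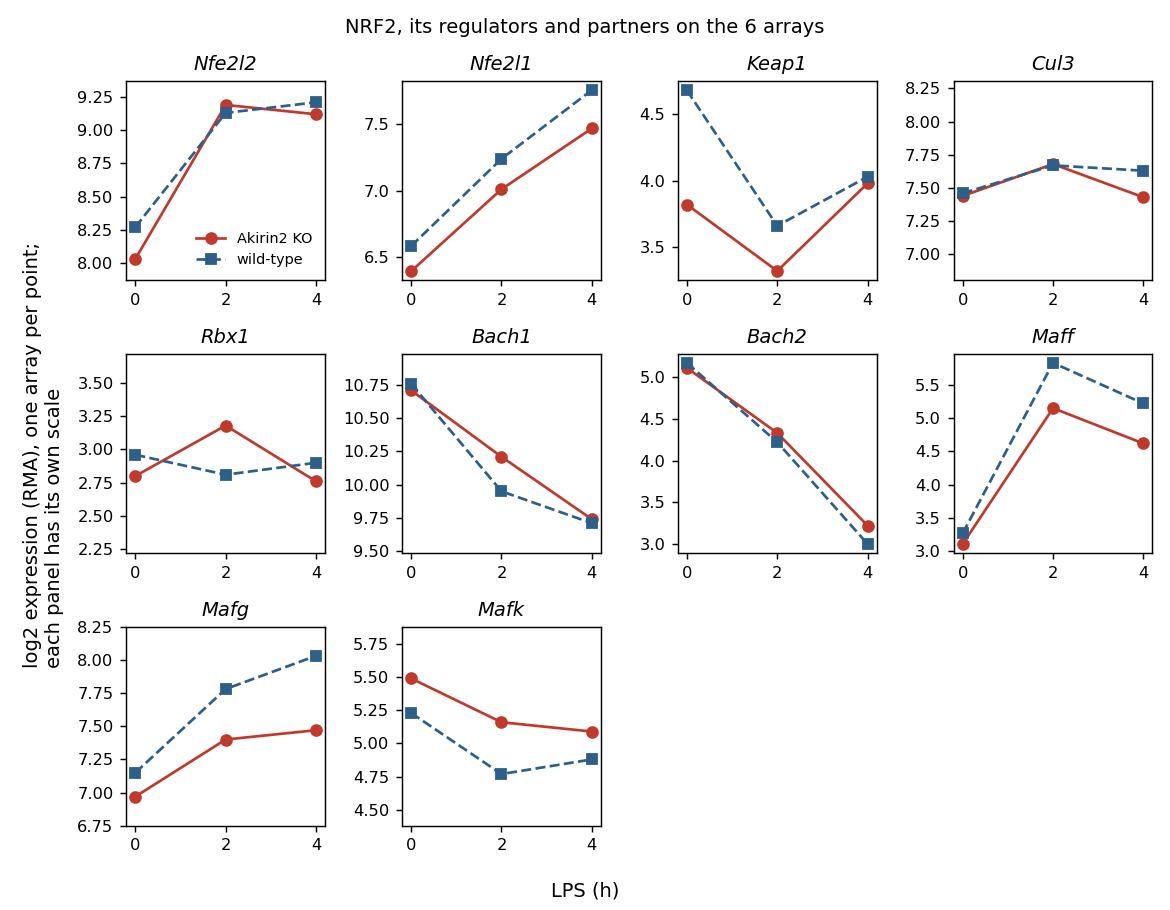
Log2 expression after RMA (vertical axis, a scale for each panel) of Nfe2l2, its relatives, partners, inhibitors and repressors at 0, 2 and 4 h of LPS (horizontal axis) in Akirin2 KO (red circles) and wild-type (blue squares), 1 array per point. Nfe2l2 and Maff climb by 2 h, Bach1 and Bach2 decline to 4 h, and Rbx1 stays near the array medians.

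Beyond these genes, 8 lists of related genes held 106 genes, 96 of them above the floor. By 4 h 17 of the 96 had risen (17.7%) and 12 had fallen (12.5%), beside 7.76% and 7.61% of all genes. At 2 h 6 had risen and 6 had fallen (6.25% each). Among 24 genes of glutathione use and transport, 6 had risen at 4 h and 0 had fallen, with a list median of 0. Abcc1, which exports glutathione conjugates, rose by 2.39 (SE 0.15, adjusted p = 2.95e-05). Glrx, a glutaredoxin, rose by 1.15 (adjusted p = 0.00389). Slc3a2, the heavy chain that pairs with Slc7a11, rose by 0.94 (SE 0.15, adjusted p = 0.0035), all of these at 4 h.

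Of 12 thioredoxin and peroxiredoxin genes 0 had risen at 4 h (7.76% of all genes had) and 2 had fallen (7.61%), Sesn1 by 1.47 (adjusted p = 0.000902) and the methionine sulfoxide reductase Msrb1 by 0.81 (adjusted p = 0.0118). Of 8 genes that supply NADPH, the mitochondrial folate enzyme Mthfd2 (1.15, adjusted p = 0.00171) and malic enzyme Me1 (1.05, adjusted p = 0.00382) had risen at 4 h, and isocitrate dehydrogenase Idh1 had fallen (-0.98, adjusted p = 0.00634). Idh2 was lower at 2 h (-0.81, adjusted p = 0.0335) and not at 4 h (-0.02, adjusted p = 0.968).

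Around Hmox1, 2 of 7 heme and iron genes had risen at 4 h, beside 7.76% of all genes, with a list median of 0.18. They were the heme transporter Slc48a1 (1.48, adjusted p = 0.000644) and the biliverdin reductase Blvrb (0.90, adjusted p = 0.00398). Fech, which inserts iron to make heme, had fallen (-0.82, adjusted p = 0.011), as had 7.61% of all genes. The iron exporter Slc40a1 was lower at 2 h (-0.69, adjusted p = 0.0461). Of 15 other redox genes, Sod2, the mitochondrial superoxide dismutase, read 8.78, 11.12 and 11.67 in KO, against 9.41, 11.49 and 11.93 in wild-type. It rose by 2.70 at 4 h (SE 0.16, adjusted p = 2.48e-05), Tigar rose by 0.93 (adjusted p = 0.0157), and the epoxide hydrolase Ephx1 and carbonyl reductase Cbr1 fell by 0.66 and 0.59 (adjusted p = 0.0454 and 0.0322).

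Of 10 genes of the ATF4 and amino acid group, which shares Slc7a11 as a target, 1 had risen at 4 h, near the 7.76% of all genes. It was Asns, asparagine synthetase, at 6.21, 6.35 and 7.58 in KO, against 7.48, 7.71 and 8.40 in wild-type (1.15 at 4 h, SE 0.17, adjusted p = 0.00288). Of 10 selective autophagy genes around Sqstm1, 0 had risen and 4 had fallen at 4 h, beside 7.76% and 7.61% of all genes. The receptor Nbr1 fell by 1.30 (adjusted p = 0.000887) and Calcoco1 by 1.23 (adjusted p = 0.00529), while Sqstm1 rose.

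Between genotypes, 2 of the 96 related genes were higher in KO and 2 lower (2.08% each, beside 0.891% and 1.06% of all genes). Mgst2, a microsomal glutathione transferase, read 6.08, 6.03 and 6.01 in KO, against 3.70, 3.96 and 3.78 in wild-type (2.23, SE 0.13, adjusted p = 0.000182). Gstm2, a cytosolic one, read 4.75, 4.85 and 5.25 in KO, against 3.89, 3.31 and 3.87 in wild-type (1.26, SE 0.15, adjusted p = 0.00739). Blvrb read 5.11, 5.42 and 6.03 in KO, against 5.88, 6.06 and 6.76 in wild-type (-0.71, SE 0.12, adjusted p = 0.0269). Asns was lower in KO at each time, by 1.15 on average (-1.15, SE 0.14, adjusted p = 0.00775). The KO and wild-type ranges do not overlap for Mgst2 and Gstm2, and overlap for Blvrb and Asns.

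The 5 genes whose centred profile over the 6 arrays lay nearest to that of Slc7a11 were Ptges, Gpr84, Ccl5, Icam1 and Slc7a2, at root mean square differences of 0.32, 0.50, 0.54, 0.57 and 0.62 log2 units. Ptges, a prostaglandin E synthase, read 3.11, 6.90 and 8.86 in KO, against 4.23, 6.95 and 8.79 in wild-type. Slc7a2, an arginine transporter, read 5.05, 7.61 and 8.96 in KO, against 4.83, 7.65 and 8.82 in wild-type. Gpr84 is a fatty acid receptor, Ccl5 a chemokine and Icam1 an adhesion molecule. All 5 climbed at 2 h and again at 4 h in both genotypes, and none belongs to the lists above.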

How the data were processed

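The authors deposited log2 expression values per probe set for 6 Affymetrix arrays, which the submitters' processing notes credit to RMA, a method of background correction, quantile normalization and probe summary. The RMA version, probe definition and genome build were not given in the sources used here. Total RNA was amplified and biotin-labelled, per the labels. Values of the 45101 probe sets lay between 2.26 and 14.2. Arrays give no read depth, so their number limits the precision.

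Of the probe sets, 34958 had 1 symbol in the platform annotation, 932 had several and 9211 were unnamed here. Genes whose probe set reached an array's median on at least 1 array were kept. Tests used limma 3.58.1 in R 4.3.3 (lmFit, eBayes, Benjamini-Hochberg at 0.05). Residual and prior degrees of freedom were 2 and 6.35 in the additive fit, and 1 and 11.5 in the interaction fit. The limma code was tested on simulated data. Single arrays were compared by a 2-fold rule, with no test. Pairs of arrays correlated at 0.958 to 0.989 across probe sets.

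Members, gene lists and marker lists were chosen with earlier results of these data known. Named genes are the 10 members, Akirin2, Nfe2l2, Keap1, Bach1, the 2 largest called effects of each list with any count of 3 or fewer, and the 5 nearest profiles to Slc7a11; cell type markers and the remaining regulators were named after their values were seen. Other settings were the floor, the probe set rule, the normalization, the eBayes options, the fold and leaving out each array. Promoter sequences come from RefSeq, and those of Hmox1, Gclc and Gsr were not used here.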

Additional observations from a re-analysis of the deposited data

Results flagged for a closer look

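The LPS responses of 2 genes had opposite signs in the genotypes. Gclc changed by 0.19 at 2 h in KO, against -0.13 in wild-type, a difference of 0.33, and by 0.35 at 4 h in KO, against -0.18 in wild-type, a difference of 0.53. Nqo1 changed by -0.16 at 2 h in KO, against 0.58 in wild-type, a difference of -0.73. Each value is from single arrays, and the difference at a single time was not tested. Over both LPS times together the interaction was 0.43 for Gclc (limma, adjusted p = 0.508) and -0.41 for Nqo1 (adjusted p = 0.604). The other Gclc probe set, near the array medians, gave response differences of -0.32 at 2 h and -0.42 at 4 h, opposite to the one used.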

How the results depend on the processing

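Arrays could not be paired by animal because each condition has 1 array and the labels carry no replicate numbers. The additive fit compared times within each genotype and genotypes within each time. Among effects of single genes in the fits, settings other than leaving out an array kept direction and call in 291 cases, brought the effect past the threshold in 14, lost the call in 1 and reversed it in 9; leaving out an array gave 188, 15, 1 and 12. Some of these cases could not change direction, because other floors and eBayes options leave the effect itself as it was. Leaving out either array of a time gives the same genotype effect, so such fits are counted more than once. The cause of the changes below was not tested, except that averaging brings in dimmer probe sets and leaving out arrays removes samples.

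Calls for LPS at 2 h ran from 4 to 6 without an array, and at 4 h from 7 to 8. For 4 h against 2 h the count of 1 became 2 with averaged probe sets and 6 with a trended, robust prior, and ran from 1 to 4 without an array (4 without either 0 h array, 2 without the wild-type 2 h array). For KO against wild-type the count of 0 became 4 under that prior, all lower, and ran from 0 to 1 without an array. The interaction count of 0 became 1 under that prior (Gclm, 0.90, adjusted p = 0.0349); leaving out arrays was not run there, since no residual degree of freedom remains. Over all genes, those past the threshold numbered 121 higher and 144 lower between KO and wild-type, 76 and 66 with centred arrays, and 419 and 464 under that prior. For the interaction the counts were 1 and 3, 20 and 42 after a further quantile normalization, 0 and 0 with centred arrays, and 155 and 101 under that prior. For LPS at 2 h they were 538 and 393, 841 and 828 under that prior, 579 and 969 without the KO 0 h array, 308 and 184 without the KO 2 h array and 300 and 115 without the wild-type 2 h array. Between KO and wild-type they were 370 and 294 without either 0 h array and 72 and 86 without either 2 h array. For 4 h against 2 h they were 212 and 151, 433 and 442 under that prior, 486 and 438 without either 0 h array and 93 and 45 without the wild-type 2 h array. For LPS at 4 h they were 1055 and 1034, and 791 and 577 without the wild-type 4 h array.

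Signs changed as follows. Gclc became -0.01 at 2 h after a further quantile normalization, and leaving out an array gave -0.18 to 0.25 at 2 h (0 without the KO 2 h array) and -0.13 to 0.3 at 4 h (-0.1 without the KO 4 h array). Gclc at 4 h against 2 h became -0.05 with averaged probe sets, -0.16 without probe sets marked as cross-hybridising and ran from -0.13 to 0.24 without an array. Nqo1 at 2 h ran from -0.14 to 0.55 without an array, below 0 without the wild-type 2 h array. For KO against wild-type, Gsr became 0.02 with averaged probe sets. Without an array, Gsr ran from -0.06 to 0.06 (above 0 without either 4 h array), Hmox1 from -0.17 to 0.06 and Sqstm1 from -0.1 to 0.05 (both above 0 without either 0 h array). Interactions became -0.18 for Slc7a11 (0.23 in the fit reported), 0.04 for Gsr and -0.05 for Srxn1 with averaged probe sets, -0.37 for Gclc (0.43) without cross-hybridising probe sets and -0.01 for Srxn1 with centred arrays.

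For single arrays, averaged probe sets left 2 genes 2-fold higher at 2 h in KO and 2 in wild-type. Of all 12329 genes in that setting, 217 were 2-fold higher in KO and 223 in wild-type. A 3-fold rule left 2 higher at 2 h and 2 at 4 h in KO, beside 129 and 223 of all 13587 genes. In wild-type it left 1 at 2 h and 2 at 4 h, beside 142 and 245. Between 2 h and 4 h it left 1 higher in KO and 0 in wild-type, beside 35 and 60. Between genotypes it left 0 at 0 h, where 14 of all genes were higher in KO and 12 lower. It left 0 at 2 h as well, where 17 were higher and 9 lower. A 1.5-fold rule gave 4 higher between 2 h and 4 h in KO and 4 in wild-type, beside 484 and 602 of all genes. Between genotypes it gave 3 at 0 h and 1 at 4 h, all lower in KO. Of all 13587 genes, 900 were lower in KO and 489 higher at 0 h, and 451 lower and 638 higher at 4 h. List medians stayed within the spread in 250 cases and moved in 11.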

Other observations

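The genes nearest to other members were looked up with the same root mean square measure and are named here after their values were seen. Gsr lay nearest to the proteasome subunit Psma5, which read 7.50, 7.85 and 8.33 in KO at 0, 2 and 4 h, against 7.53, 7.92 and 8.47 in wild-type (0.05 log2 units apart). Nqo1 lay nearest to Msmo1, an enzyme of cholesterol synthesis, which read 5.58, 5.73 and 6.58 in KO, against 6.14, 6.57 and 7.23 in wild-type (0.12 apart). Sqstm1 lay nearest to the Notch ligand Jag1, which read 9.91, 11.39 and 11.20 in KO, against 10, 11.37 and 11.18 in wild-type (0.07 apart). With 6 arrays that share the LPS times, many genes have like profiles, and these values describe these arrays only.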
